A study of Mus musculus with 8 samples.

Results

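Dhrs9 and 8 genes that make, bind, sense or degrade retinoic acid were followed through 8 lists of open chromatin from mouse retinal ganglion cells (RGCs). Overlapping peaks of the 8 lists (1 bp or more) were joined, which gave 189914 regions, and 92 of these overlapped the 9 genes or the 10000 bp on either side of them (GRCm38 coordinates). Dhrs9 was chosen by its open-chromatin values in the contrasts of Ezh2-Y726D with GFP and of Ezh2 with Ezh2-Y726D, so these values are given as a description, without a test. Dhrs3, Rdh10, Aldh1a1, Aldh1a2, Aldh1a3, Cyp26b1, Rarb and Crabp1 were chosen for their role in the same pathway.

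Retinoic acid is made from vitamin A by a pair of oxidation steps. Retinol dehydrogenases such as Rdh10 and Dhrs9 oxidize retinol to retinaldehyde, Dhrs3 catalyzes the reverse reduction, and the retinaldehyde dehydrogenases Aldh1a1, Aldh1a2 and Aldh1a3 complete the synthesis. The product is bound in the cytoplasm by Crabp1, broken down by Cyp26b1, and acts in the nucleus through receptors such as Rarb, a gene that is itself known to respond to retinoic acid, while in the retina the same enzyme families also serve the visual cycle.

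The libraries came from adult C57BL/6J mice of both sexes that received AAV2 for GFP (AAV2-GFP), for Ezh2 (AAV2-Ezh2) or for Ezh2-Y726D (AAV2-Ezh2-Y726D) in the vitreous body. Ezh2 is the histone methyltransferase of PRC2, and Ezh2-Y726D is a form of it without catalytic activity. The optic nerve of every mouse was crushed (ONC) 2 weeks after injection, and cells were sorted 3 days after ONC, 50000 per library, so no library came from an uninjured nerve. There were 3 GFP, 3 Ezh2 and 2 Ezh2-Y726D libraries. The sort took live cells that carried CD90.2, a form of Thy1 found on RGCs and also on T cells. The labels do not say that the libraries came from separate mice, so p-values measure the spread between libraries. Each list held 112939 to 135895 peaks, each with a fold over the local background of its own library, and no read counts, so depth is unknown. Normal scores of the fold correlated at 0.902 to 0.918 between the 7 pairs of libraries of the same group and at 0.765 to 0.869 between the 21 pairs of different groups, across regions that are not independent of each other. Of 15 RGC marker genes, 14 to 15 had a peak within 1000 bp of a gene end in each library.

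The promoters of 3 genes on which the results turn are shown in full, from 250 bases before to 50 bases after the start site, as RefSeq sequence of GRCm38.p6 (7 of the 9 genes had an entry, with none for Rdh10 or Aldh1a3). The Dhrs9 window (chr2:69380212-69380511, plus strand) lay wholly inside the region by which the gene was chosen, and its capitals mark an AP-1 motif at position -18 from the start site. The Rarb window (chr14:16575427-16575726, minus strand) was under a strong peak in every library, and its capitals mark the letters of a DR5, the repeat that retinoic acid receptors are known to bind, at position -53. The Aldh1a2 window (chr9:71215539-71215838, plus strand) lay in a region that was lower in Ezh2-Y726D than in Ezh2, and no letters are marked.
Dhrs9: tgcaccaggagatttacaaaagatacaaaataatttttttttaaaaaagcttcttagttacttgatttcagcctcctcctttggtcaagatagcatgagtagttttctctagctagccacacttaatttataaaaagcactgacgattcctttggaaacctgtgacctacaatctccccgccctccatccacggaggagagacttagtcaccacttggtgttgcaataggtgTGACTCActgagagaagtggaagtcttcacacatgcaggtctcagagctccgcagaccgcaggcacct
Rarb: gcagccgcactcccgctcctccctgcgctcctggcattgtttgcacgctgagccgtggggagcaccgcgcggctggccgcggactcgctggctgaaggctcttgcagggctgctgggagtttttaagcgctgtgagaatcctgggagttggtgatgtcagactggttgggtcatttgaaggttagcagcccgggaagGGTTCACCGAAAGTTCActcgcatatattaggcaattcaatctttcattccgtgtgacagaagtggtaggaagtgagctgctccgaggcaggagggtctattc
Aldh1a2: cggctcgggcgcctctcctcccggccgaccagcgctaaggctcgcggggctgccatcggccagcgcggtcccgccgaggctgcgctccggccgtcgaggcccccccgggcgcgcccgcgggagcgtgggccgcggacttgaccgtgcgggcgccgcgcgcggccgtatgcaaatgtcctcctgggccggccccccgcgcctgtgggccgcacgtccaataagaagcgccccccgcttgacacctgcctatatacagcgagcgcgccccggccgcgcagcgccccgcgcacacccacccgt

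Motifs were searched on both strands. The letters for AP-1 were TGACTCA, which reads TGAGTCA on the opposite strand, so both spellings mark the same site. The letters for the myeloid factor PU.1 were GAGGAAGT. For retinoic acid receptors, the search took direct repeats spaced by 2 (DR2) or 5 (DR5) bases, in which each repeat could be AGGTCA in its usual spelling, or else the variant AGTTCA, a further variant written GGGTCA, or the last accepted spelling, GGTTCA. A DR2 and a DR5 can share a repeat, and no window of these genes held both. Of 32851 promoter windows of this length, 5.20% held the AP-1 letters, 3.20% those of PU.1, 0.268% a DR2 and 0.0974% a DR5. The Rarb match reads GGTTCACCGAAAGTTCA, and none of the other windows of these genes held a DR2 or DR5. The AP-1 letters also stood at position -57 from the first of the Aldh1a1 start sites, where no list had a peak. The Dhrs9 window was poor in G and C (43.7%) beside those of Rarb (57.7%) and Aldh1a2 (78.0%). A match is a description of the letters and not of binding.

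By fold, the Dhrs9 start site lay under one of the strongest peaks of every GFP and Ezh2 library and under one of the weakest peaks of both Ezh2-Y726D libraries. The gene (chr2:69380462-69403086) had 3 merged regions, and the start-site region spanned chr2:69380209-69380997, 789 bp that also lie in the long non-coding gene Gm36393. The fold over background there was 10.60, 9.63 and 11.22 in GFP, 10.83, 13.01 and 11.25 with Ezh2, and 2.95 and 3.15 with Ezh2-Y726D. As a within-list percentile, the share of a list's peaks with the same or a lower fold, this was 95.1, 89.8 and 96.3 in GFP, 94.7, 98.5 and 97.1 with Ezh2, and 5.0 and 10.6 with Ezh2-Y726D. The group means were 93.7 ± 3.45 (SD, n = 3), 96.8 ± 1.94 (n = 3) and 7.8 ± 3.98 (n = 2). GFP and Ezh2 overlapped, and both Ezh2-Y726D libraries stood far below all 6 others. Normal scores were taken over the regions with a peak in all 8 lists, and 1 unit is 1 SD of a library's scores. On this scale the difference was 0.33 for Ezh2 minus GFP, -3.25 for Ezh2-Y726D minus GFP and 3.58 for Ezh2 minus Ezh2-Y726D. Of the 69493 regions with a peak in all 8 lists, this was the lowest value of Ezh2-Y726D minus GFP and the highest of Ezh2 minus Ezh2-Y726D, which is how the gene was chosen. The Ezh2 and GFP libraries differed by far less, and 12547 of 69493 regions had a difference at least as high as that of Dhrs9.

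Other features of the same Dhrs9 peak are given as a description. They come from the same peak call as the fold, at a region chosen by its fold, so they are not separate evidence. The −log10 q of the peak was 31.73, 24.40 and 40.80 in GFP, 44.74, 71.46 and 54.92 with Ezh2, and 2.05 and 2.93 with Ezh2-Y726D. The peak was 427, 519 and 729 bp wide in GFP, 699, 785 and 781 bp in Ezh2, and 200 and 310 bp in Ezh2-Y726D. By both measures the Ezh2-Y726D libraries lay below all others, and 200 bp is the smallest width in these lists. The summit lay between 2 bp before and 102 bp after the start site in all 8 libraries, so the weak peaks were at the same place as the strong ones.

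The other Dhrs9 regions were weak or missing in most libraries. Within the gene (chr2:69398434-69398758) the percentiles were 10.0 and 13.4 in GFP replicates 2 and 3, with no peak in replicate 1, and 16.1, 48.3 and 42.8 in Ezh2, with no peak in either Ezh2-Y726D library. Beyond the far end of the gene (chr2:69406757-69407336), the percentile was 13.4 in GFP replicate 3, 40.6 in Ezh2 replicate 1, and 32.1 and 10.6 in Ezh2-Y726D. Ezh2-Y726D was therefore without a peak at the inner region and had one in both libraries at the outer region.

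Peaks at genes of microglia, macrophages and T cells were fewer in the same Ezh2-Y726D libraries. The list of microglia and macrophages holds 20 genes, of which the GFP libraries had a peak within 1000 bp of a gene end at 15, 11 and 16, the Ezh2 libraries at 16, 15 and 17, and the Ezh2-Y726D libraries at 6 each. Cx3cr1, C1qb, Tyrobp, Cd68 and Ly86 had such a peak in all GFP and Ezh2 libraries and in neither Ezh2-Y726D library, whereas Aif1 and Mrc1 had none in any list. The T cell list holds 15 genes, with such a peak at 13, 13 and 15 in GFP, at 15 in each Ezh2 library, and at 7 and 6 in Ezh2-Y726D, with Cd3g, Cd8a, Zap70, Lat, Il2rb and Cd28 having one in every library but those of Ezh2-Y726D. Over all libraries the counts were 12 to 14 of 15 genes for rods, 13 for Müller glia, 11 to 12 for amacrine cells and 12 to 14 for bipolar cells, and those of Ezh2-Y726D overlapped the others. In bulk libraries, fewer cells of a type and less open chromatin per cell cannot be told apart, and the part of these cell types in the Dhrs9 difference was not tested.

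**Figure D1:**
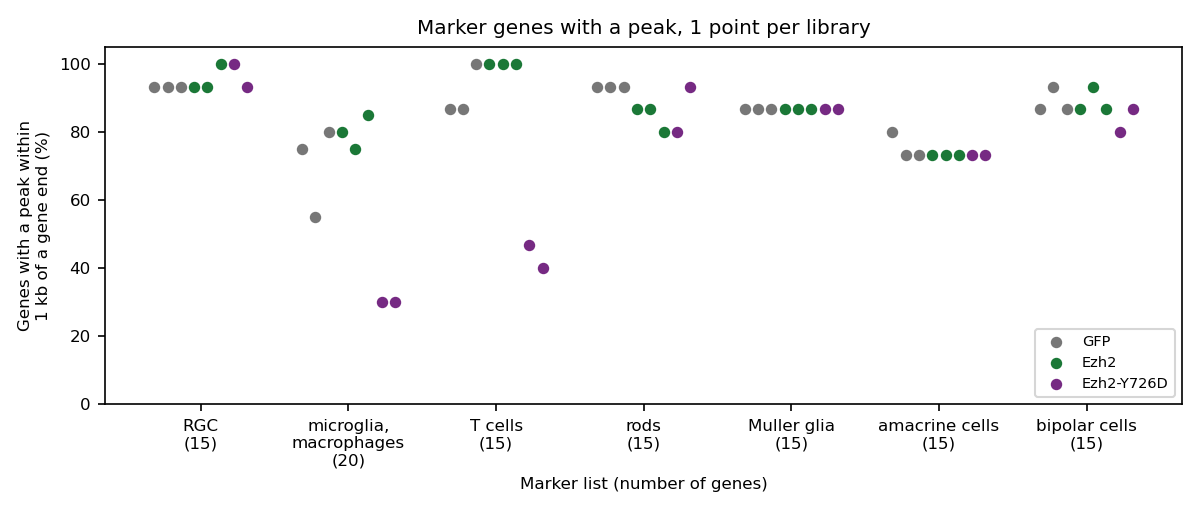
Share of marker genes with a peak within 1 kb of a gene end (percent, vertical axis) for 7 lists of cell type markers, with 1 point per library colored by group. Ezh2-Y726D libraries lie below all others for microglia and macrophages (6 of 20 genes each) and T cells (6 and 7 of 15), and among the others for the RGC list.

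The regions of protein-coding genes whose profile over the 8 libraries was closest to that of the Dhrs9 start site, by Euclidean distance in normal scores, were in Psd3 (distance 1.37), 4932438H23Rik (1.49), Kansl1 (1.53), Ip6k1 (1.59) and Snd1 (1.62). The Psd3 region had percentiles of 93.9, 75.2 and 88.5 in GFP, 98.2, 99.0 and 97.0 with Ezh2, and 24.8 and 10.6 with Ezh2-Y726D. None of these 5 regions was at a start site, and none of the genes is in the marker lists. Only regions with a peak in all 8 lists were compared. Marker regions without a peak in Ezh2-Y726D could therefore not be among them, and their absence decides nothing.

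The 92 regions were unevenly shared between the genes and the libraries. Rarb, the longest gene, had 41, Dhrs3 10, Aldh1a1, Aldh1a3 and Cyp26b1 9 each, Rdh10 5, and Dhrs9, Aldh1a2 and Crabp1 3 each. A peak was present at 60, 59 and 68 of them in GFP, 57, 66 and 67 with Ezh2, and 66 and 65 with Ezh2-Y726D, or 62.3 ± 4.93, 63.3 ± 5.51 and 65.5 ± 0.707 (SD, n = 3, 3 and 2), and these ranges overlapped. Peaks of all 8 lists were found at 41 regions and a peak of a single list at 13, and 80 regions overlapped the gene itself. The regions closest to the 10000 bp limit were at Dhrs3 (8805 bp away, percentiles 73.5 to 87.2 in 8 lists) and, just outside, at Crabp1 (10545 bp away, 4.0 to 12.3 in 3 lists).

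**Figure D2:**
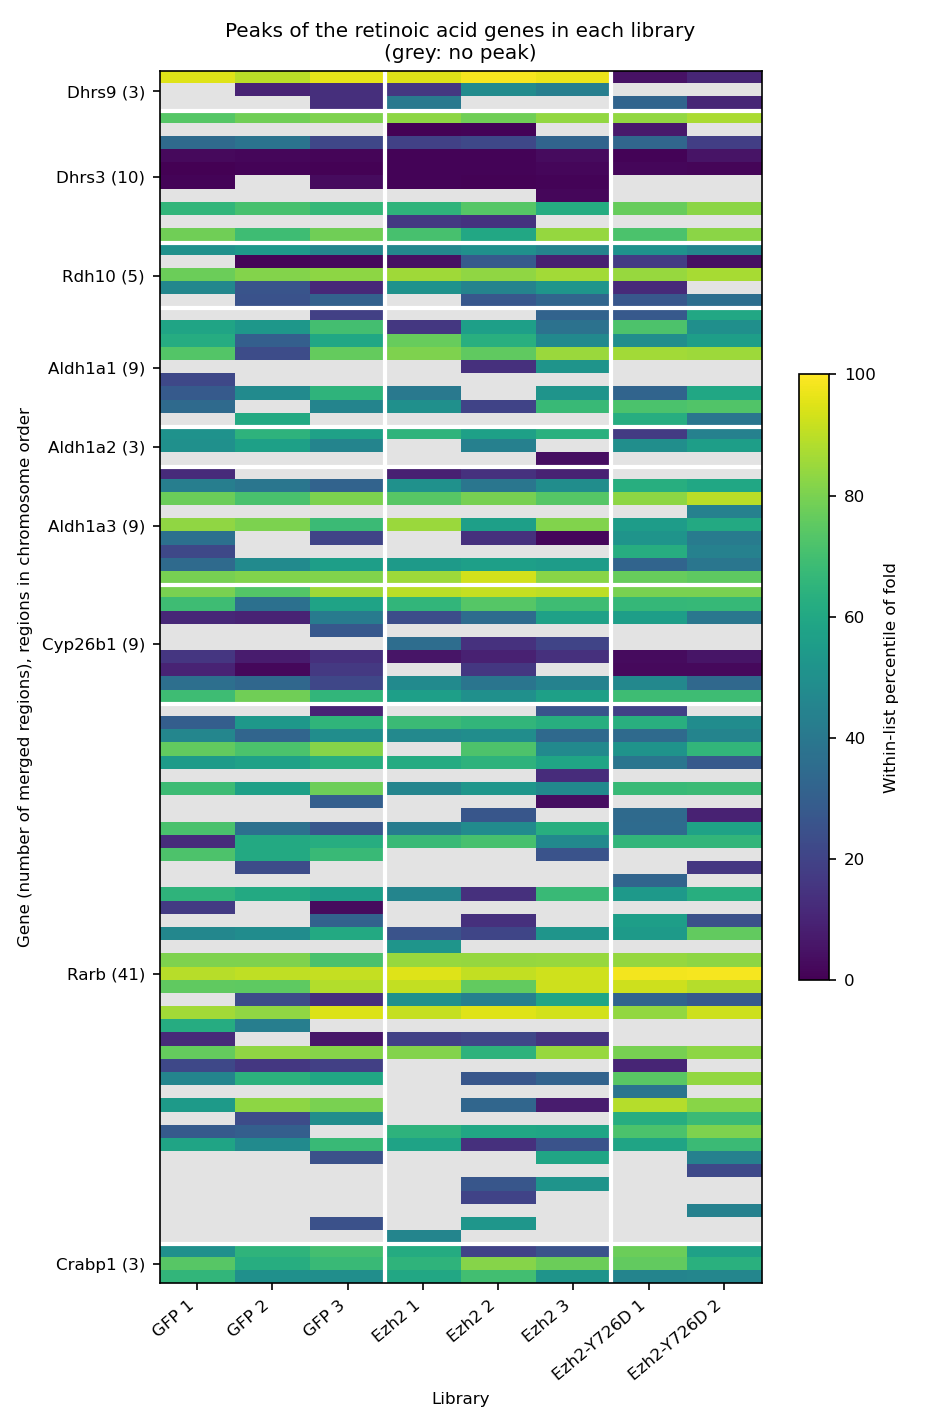
Within-list percentile of the fold (color, 0 to 100) for the 92 regions of the 9 genes (rows, in chromosome order within each gene) in the 8 libraries (columns), with grey where a list had no peak. The first row, the Dhrs9 start site, is at 89.8 to 98.5 in GFP and Ezh2 and at 5.0 and 10.6 in Ezh2-Y726D, and 41 of the 92 rows have a peak in all columns.

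Between Ezh2 and GFP, which both had AAV2 before ONC and differ in the gene it carried, no region of the 9 genes passed the test. limma was run on normal scores of the 69493 regions with a peak in all lists, 41 of them among these 92, with Benjamini-Hochberg adjustment over all 69493 and a threshold of 0.05. It called 0 of the 41, where 1.59% of all regions tested were higher and 2.84% lower in Ezh2. An unadjusted p below 0.05 was found for 7 of the 41 (17.1%), against 20.0% of all regions. The median difference over the 40 regions of the 8 genes other than Dhrs9 was 0.14, beside 0.01 over all regions. The differences ran from -0.83 at the Crabp1 start site to 0.74 within Aldh1a1. This count depended on 1 library, since 3 regions were called without Ezh2 replicate 1.

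Between Ezh2-Y726D and GFP, 2 of the 40 regions of the 8 genes were called, both in Rarb, 1 higher and 1 lower in Ezh2-Y726D. Over all regions tested, 3.55% were higher and 4.65% lower, so the share of 5.00% in these genes was no larger than that of all regions (8.21%). The median difference was 0.02 in the 8 genes and -0.01 over all regions. The count of 2 fell to 0 without either Ezh2-Y726D replicate and to 1 without GFP replicate 1 or 2. The Dhrs9 start site, chosen by this contrast, is not counted.

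Between Ezh2 and Ezh2-Y726D, which share the injury and differ in catalytic activity, 4 of the 40 regions were called, 2 higher in Ezh2, at Aldh1a2 and Rarb, and 2 lower, both in Rarb. The background was 7.0% higher and 6.96% lower, and 10.00% of the regions of the 8 genes against 14.00% of all regions were called. The median difference was -0.09 in the 8 genes and 0.02 over all regions. The count, again without the Dhrs9 start site, was 0 without Ezh2-Y726D replicate 1, 1 without Ezh2-Y726D replicate 2, and 2 without Ezh2 replicate 2 or 3. Without Ezh2 replicate 1 it was 6, of which 1 was higher and 5 were lower in Ezh2. This comparison and the one before share the Ezh2-Y726D libraries and are not independent.

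**Figure D3:**
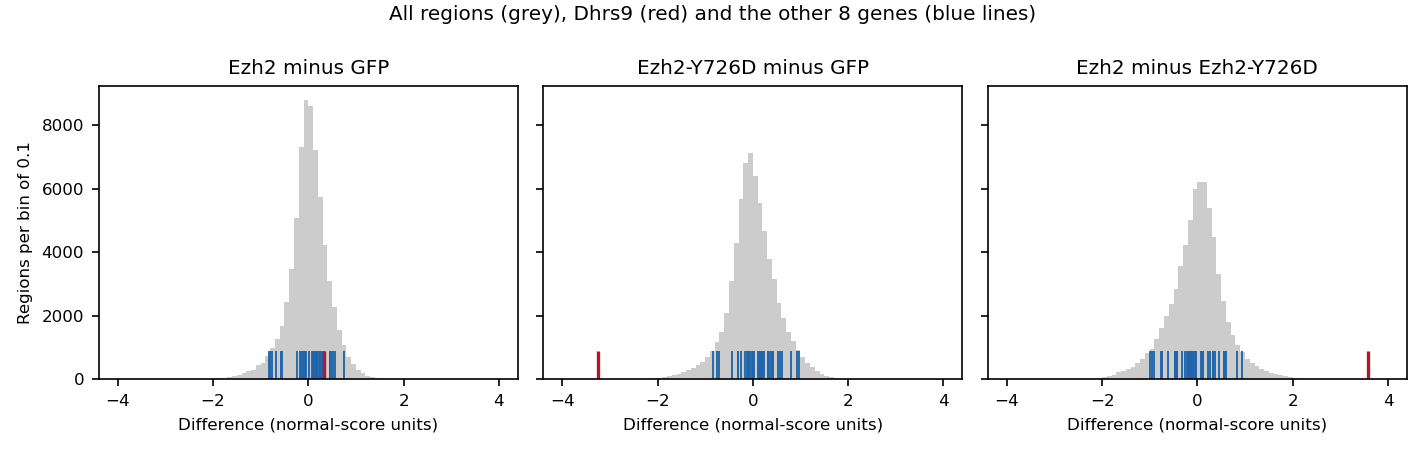
Differences between group means in normal-score units (horizontal axis) for the 69493 regions with a peak in all lists (grey bars, regions per bin of 0.1), the Dhrs9 start site (red line) and the 40 tested regions of the other 8 genes (blue lines) in the 3 comparisons. Dhrs9 is at 0.33, -3.25 and 3.58, and the blue lines lie within the grey distribution, between -0.99 and 0.96.

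Of the retinol-oxidizing and retinaldehyde-reducing enzymes, neither Dhrs3 nor Rdh10 had a called region. Dhrs3 (chr4:144892534-144928209, wholly inside the span annotated for Vps13d) had percentiles at its start-site region (chr4:144891397-144892963) of 34.6, 38.2 and 21.2 in GFP, 19.4, 21.5 and 32.1 with Ezh2, and 33.0 and 18.5 with Ezh2-Y726D. The groups overlapped, with differences of -0.24 (SE 0.216) for Ezh2 and -0.16 (SE 0.241) for Ezh2-Y726D against GFP, and limma adjusted p of 0.614 and 0.744. A region 964 bp past the start site was at 0.8 to 5.2 in all 8 libraries, among the weakest folds of each list. The strongest Dhrs3 region, upstream of the gene (chr4:144882569-144883729), was at 73.5, 78.2 and 80.6 in GFP, 83.1, 78.5 and 83.6 with Ezh2, and 83.7 and 87.2 with Ezh2-Y726D, and none of the differences there was called.

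Rdh10, the retinol dehydrogenase needed for retinoic acid synthesis in the embryo, had 2 of its 5 regions tested and neither called. The region over the low-coordinate end of the gene (chr1:16104067-16106376; the strand is not in the tables used here), shared with the neighboring ribosomal protein gene Rpl7, was at 50.4, 53.6 and 45.7 in GFP, 46.7, 50.3 and 44.7 with Ezh2, and 50.8 and 45.4 with Ezh2-Y726D. An inner region (chr1:16122656-16123540) was at 77.7, 81.6 and 83.1 in GFP, 85.6, 83.4 and 86.3 with Ezh2, and 84.6 and 86.9 with Ezh2-Y726D. Both regions differed by at most 0.19 between groups. A further region without a peak in every list (chr1:16128053-16128688) was at 46.4, 26.1 and 11.7 in GFP, 51.1, 44.9 and 52.2 with Ezh2, and 12.1 in Ezh2-Y726D replicate 1, with no peak in replicate 2, and was not tested.

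Of the retinaldehyde dehydrogenases, Aldh1a2 was the gene with a call, lower in Ezh2-Y726D than in Ezh2. Its start-site region (chr9:71215191-71216734, also overlapping the non-coding gene Gm3458) was at 51.1, 64.7 and 57.2 in GFP, 65.2, 57.0 and 63.3 with Ezh2, and 17.2 and 44.0 with Ezh2-Y726D. Both Ezh2-Y726D libraries were below all others, and replicate 1 was far below replicate 2. The difference was 0.94 for Ezh2 minus Ezh2-Y726D (SE 0.246, limma adjusted p = 0.0324) and -0.83 for Ezh2-Y726D minus GFP (SE 0.246, adjusted p = 0.0667), which was not called. The call held in 8 of 14 alternatives. It was lost with percentiles in place of normal scores, with replicate number as a block by either numbering, and without Ezh2-Y726D replicate 1. It was also lost without Ezh2 replicate 1 (limma adjusted p = 0.0765) or Ezh2 replicate 3 (0.0626). As the fold over background, the values were 4.79, 6.03 and 5.19 in GFP, 5.92, 5.16 and 5.39 with Ezh2, and 3.54 and 4.61 with Ezh2-Y726D.

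Aldh1a1 and Aldh1a3 had no call. At the first of the listed Aldh1a1 start sites (position 20492583 of chromosome 19) no list had a peak, and at the other (chr19:20601675-20602407) the percentiles were 28.2, 48.0 and 65.1 in GFP, 40.6 and 51.6 in Ezh2 replicates 1 and 3, with no peak in replicate 2, and 32.1 and 59.4 in Ezh2-Y726D. The strongest Aldh1a1 region (chr19:20566080-20567005) was at 73.1, 23.3 and 76.3 in GFP, 80.7, 75.4 and 85.0 with Ezh2, and 86.1 and 85.2 with Ezh2-Y726D, and its differences from GFP of 0.74 (SE 0.347) and 0.96 (SE 0.388) had limma adjusted p of 0.269 and 0.160. GFP replicate 2 stood apart from the other GFP libraries there. At the high-coordinate end of Aldh1a3 (chr7:66427186-66428168; strand likewise not given) the percentiles were 34.6, 48.0 and 56.2 in GFP, 54.5, 56.3 and 55.4 with Ezh2, and 32.1 and 39.1 with Ezh2-Y726D. The Ezh2-Y726D libraries were below all Ezh2 libraries and overlapped GFP, and the difference of 0.56 for Ezh2 minus Ezh2-Y726D (SE 0.195) missed the threshold (limma adjusted p = 0.0837).

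Cyp26b1, the enzyme that clears retinoic acid, had no peak over its promoter window in any list. The nearest region (chr6:84594149-84595100), 241 bp from the gene, was at 69.1, 78.2 and 65.8 in GFP, 56.5, 50.3 and 56.9 with Ezh2, and 68.9 and 69.0 with Ezh2-Y726D. Ezh2 was below the other groups in every library, with a difference of -0.56 from GFP (SE 0.188, limma adjusted p = 0.124) that was not called. A region beyond the other end (chr6:84567463-84568470) had the opposite order, at 80.0, 73.3 and 85.6 in GFP, 89.6 to 91.1 in Ezh2, and 80.0 in both Ezh2-Y726D libraries. Its differences of 0.51 from GFP (SE 0.162) and 0.56 from Ezh2-Y726D (SE 0.181) had limma adjusted p of 0.109 and 0.0655.

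Crabp1, the cytoplasmic binding protein, varied widely among the Ezh2 libraries. Its start-site region (chr9:54764439-54766210) was at 50.3, 65.0 and 70.0 in GFP, 61.6, 20.3 and 25.4 with Ezh2, and 77.4 and 57.4 with Ezh2-Y726D. Replicates 2 and 3 of Ezh2 were below all others and replicate 1 was among them. The difference of -0.99 for Ezh2 minus Ezh2-Y726D (SE 0.381) was the lowest of the 40 regions and was not called (limma adjusted p = 0.114). The other Crabp1 regions were at 62.3 to 81.7, with overlapping groups, and at 45.2 to 69.6. In the latter, both Ezh2-Y726D libraries (45.2 and 46.0) were below all others, and no difference was called.

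**Figure D4:**
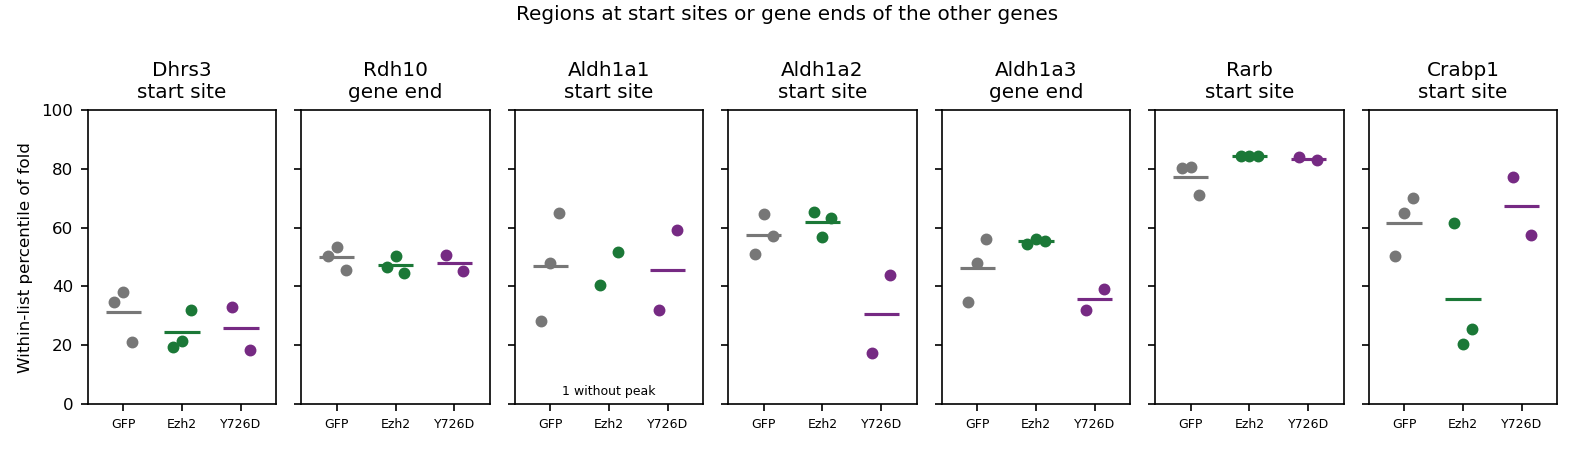
Within-list percentile of the fold (vertical axis, 0 to 100) at the start-site or gene-end region of 7 of the genes, with 1 point per library and a bar at the group mean. Groups overlap at Dhrs3, Rdh10 and Aldh1a1, GFP (71.2 to 80.6) is below the others at Rarb, the Ezh2-Y726D libraries (17.2 and 44.0) are below all others at Aldh1a2, and Ezh2 spreads from 20.3 to 61.6 at Crabp1.

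Rarb, the receptor gene, had an open promoter in all libraries and calls at 3 regions away from it. The start-site region (chr14:16574636-16576140), which holds the DR5 letters shown above, was at 80.5, 80.6 and 71.2 in GFP, 84.6, 84.3 and 84.5 with Ezh2, and 84.0 and 83.1 with Ezh2-Y726D. The means were 77.4 ± 5.42, 84.5 ± 0.13 and 83.5 ± 0.60 (SD, n = 3, 3 and 2). GFP lay below the other groups, but its differences from Ezh2 (0.29, SE 0.180) and Ezh2-Y726D (0.22, SE 0.201) had limma adjusted p of 0.420 and 0.547.

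A Rarb region inside the gene, at -13964 bp from the listed start site (chr14:16588913-16589967) was the one higher in Ezh2-Y726D. It was at 89.1, 90.4 and 91.1 in GFP, 95.1, 90.7 and 92.7 with Ezh2, and 98.2 and 98.5 with Ezh2-Y726D, with folds of 13.58 and 13.53 in Ezh2-Y726D beside 8.71 to 10.99 in the others. Both Ezh2-Y726D libraries were above all others. The difference was 0.93 for Ezh2-Y726D minus GFP (SE 0.180, limma adjusted p = 0.0150) and -0.75 for Ezh2 minus Ezh2-Y726D (SE 0.180, adjusted p = 0.0223). These calls held in 14 and 11 of 17 alternatives. Both were lost with percentiles in place of normal scores (limma adjusted p = 0.0744 against GFP and 0.139 against Ezh2). Both were also lost without Ezh2-Y726D replicate 1 or 2, where the lone Ezh2-Y726D library is assumed to vary like the other groups. The differences there were 0.96 and 0.89 from GFP, and -0.78 and -0.71 for Ezh2 minus Ezh2-Y726D. The call against Ezh2 was further lost without Ezh2 replicate 2 (limma adjusted p = 0.0672) or 3 (0.0562), and with the title numbers as a block (0.0551).

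A Rarb region 127733 bp past the start site (chr14:16447550-16447937) was lower in Ezh2-Y726D. It was at 54.7, 57.1 and 62.5 in GFP, 61.6, 64.5 and 58.8 with Ezh2, and 38.7 and 28.0 with Ezh2-Y726D. Both Ezh2-Y726D libraries were below all others, by -0.76 against GFP (SE 0.184, limma adjusted p = 0.0335) and with Ezh2 higher by 0.83 (SE 0.184, adjusted p = 0.0160). The calls held in 8 and 14 of 16 alternatives, and both were lost without Ezh2-Y726D replicate 2 (limma adjusted p = 0.228 and 0.142) or replicate 1 (0.0944 and 0.0508), the former also without any 1 GFP library (0.0615 to 0.0756). Nearer the start site (15571 bp past it, chr14:16559376-16560435), Ezh2 was at 25.7, 21.0 and 52.3 and Ezh2-Y726D at 54.3 and 76.0, with GFP between at 46.2, 48.5 and 60.8. Here Ezh2 was lower than Ezh2-Y726D by -0.96 (SE 0.283, limma adjusted p = 0.0491), a call that held in 4 of 15 alternatives and was lost without any 1 library other than Ezh2 replicate 3 (adjusted p of 0.0538 to 0.299). Called Rarb regions thus went in both directions within 1 gene.

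**Figure D5:**
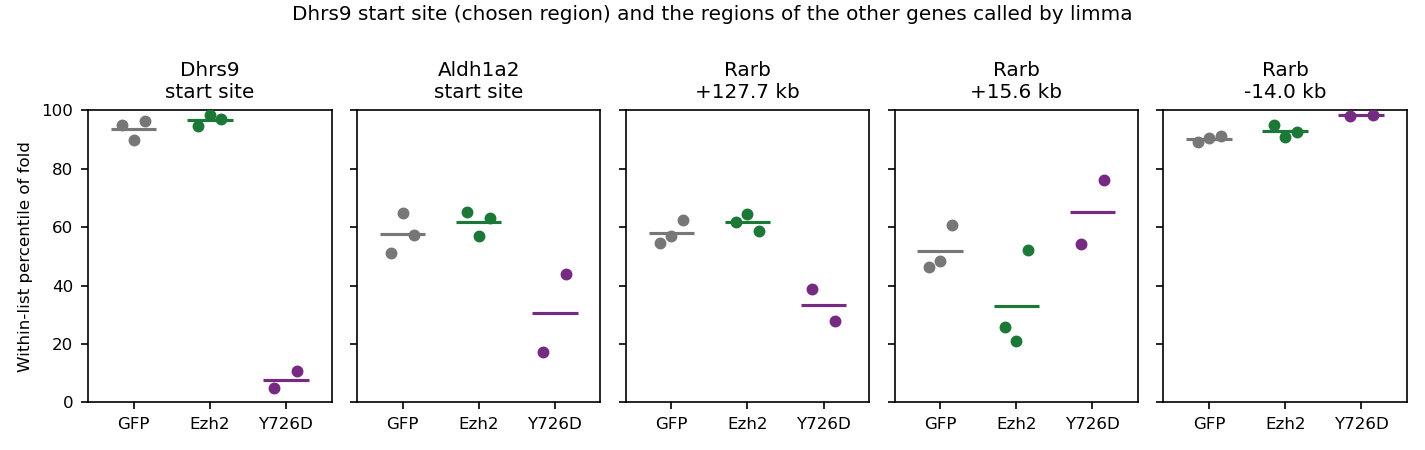
Within-list percentile of the fold (vertical axis, 0 to 100) for the Dhrs9 start site, which was chosen by its values, and the 4 regions of the other genes called by limma in any comparison, with 1 point per library and a bar at the group mean, and distances in kb from the listed start site. The Ezh2-Y726D libraries are lowest at Dhrs9, Aldh1a2 and the Rarb region 127733 bp past the start site and highest at the Rarb region at -13964 bp.

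Regions with a peak in every library of a group and none of another were few, and no test was made because presence follows each list's threshold. Between Ezh2 and GFP there was 1 in each direction (1.09% of 92), where 2.72% of all 189914 regions were found only in Ezh2 and 1.68% only in GFP. The region only in Ezh2 was in Cyp26b1 (chr6:84583341-84583908, percentiles 35.9, 14.4 and 20.4) and the one only in GFP was in Rarb (chr14:16742159-16742666, 21.5, 16.3 and 19.0). Between Ezh2-Y726D and GFP there was again 1 each way, both in Rarb, where the background was 4.77% only in Ezh2-Y726D and 4.72% only in GFP. The Rarb region only in GFP (chr14:16533155-16533556) was at 72.0, 60.7 and 67.6, above the middle of the GFP lists, and Ezh2 had a peak there in 1 library (25.4). The one only in Ezh2-Y726D (chr14:16518560-16518959) was at 34.5 and 9.5.

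Between Ezh2 and Ezh2-Y726D, 5 of the 92 regions (5.43%) were found only in Ezh2 and 3 (3.26%) only in Ezh2-Y726D, against 8.96% and 6.14% of all regions. The balance turned to 3 against 5 with lists of equal length, 5 against 6 with −log10 q of at least 5 or without Ezh2-Y726D replicate 2, 6 against 7 without Ezh2-Y726D replicate 1 and 5 against 7 without Ezh2 replicate 2. Those only in Ezh2 were the inner Dhrs9 region, the Cyp26b1 region given above, and 1 region each of Dhrs3 (chr4:144898014-144898513), Aldh1a3 (chr7:66384212-66384579) and Rarb (chr14:16732123-16732464). The last 3 were weak, at 0.5 to 1.1, 9.1 to 14.4 and 15.0 to 21.3 in Ezh2. All but the Cyp26b1 region also had a peak in 1 or 2 GFP libraries. Those only in Ezh2-Y726D were in Aldh1a1 (chr19:20634318-20634641, 62.2 and 39.1), Aldh1a3 (chr7:66418994-66419339, 62.2 and 44.0) and Rarb (chr14:16840783-16841421, 62.2 and 68.1), and each also had a peak in 1 or 2 GFP libraries.

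Among 36 other genes of retinoid metabolism and response, 35 had at least 1 region and 151 of 339 regions could be tested. limma called 0 higher and 3 lower in Ezh2 against GFP, 1 higher and 9 lower in Ezh2-Y726D against GFP, and 10 higher and 6 lower in Ezh2 against Ezh2-Y726D. As shares of the tested regions these were 1.99%, 6.62% and 10.60%, below the 4.44%, 8.21% and 14.00% of all regions. The median differences were -0.01, -0.10 and 0.09. The counts rested on few libraries. Ezh2 against GFP gave 0 calls without GFP replicate 1 or Ezh2 replicate 3, and 1 without GFP replicate 2 or 3 or either Ezh2-Y726D replicate. Ezh2-Y726D against GFP gave 3 and 4 calls without Ezh2-Y726D replicate 1 and 2 and 6 without GFP replicate 1, and Ezh2 against Ezh2-Y726D gave 6 without either Ezh2-Y726D replicate. At an unadjusted p below 0.05 there were 30 regions in Ezh2 against GFP (19.9%, against 20.0% of all regions). By role, 4 of 34 tested regions (11.8%) of the 10 genes of the visual cycle, storage and transport were lower with Ezh2-Y726D than with GFP. Of these, 3 were in Abca4 and 1 was near Rbp3. For the 7 genes known to respond to retinoic acid it was 3 of 44 (6.82%), at Meis1 (2) and Meis2 (1). The shares were lower for other dehydrogenases and reductases (1 of 26, 3.85%), other receptors (1 of 39, 2.56%) and other binding and breakdown genes (0 of 9). Over all regions the share was 4.65%, and no test of the roles was made.

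The largest of these calls by size of difference were within Meis2, a homeobox gene, and Abca4, the retinoid transporter of photoreceptors. The Meis2 region (chr2:115865109-115865872) was at 68.1, 62.4 and 65.8 in GFP, 73.7, 76.1 and 66.1 with Ezh2, and 25.2 and 5.3 with Ezh2-Y726D, which differed from Ezh2 by 1.79 (SE 0.254, Ezh2 higher, limma adjusted p = 0.00245) and from GFP by -1.58 (SE 0.254, adjusted p = 0.00759). The Abca4 region (chr3:122085046-122085969) was at 60.2, 62.4 and 73.0 in GFP, 66.1, 69.2 and 62.0 with Ezh2, and 10.2 and 16.1 with Ezh2-Y726D, a difference from GFP of -1.61 (SE 0.189, adjusted p = 0.0026). In both, the Ezh2-Y726D libraries were below all others. Leaving out Ezh2-Y726D replicate 2 took away the Meis2 call against GFP. The Meis2 call against Ezh2 and that of Abca4 were kept with any 1 library left out.

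Rdh12, a photoreceptor retinol dehydrogenase, was lower in both treated groups. Its region (chr12:79215784-79216732) was at 87.1, 86.6 and 89.9 in GFP, 70.3, 73.2 and 51.6 with Ezh2, and 44.5 and 48.4 with Ezh2-Y726D, with differences from GFP of -0.99 (SE 0.216, limma adjusted p = 0.0335) and -1.59 (SE 0.242, adjusted p = 0.00635). The Ezh2 call held in 5 of 16 alternatives, and the Ezh2-Y726D call in 15, with a limma adjusted p of 0.0566 without Ezh2-Y726D replicate 1. Of the receptors, a weak region of Rarg was lower in Ezh2 than in Ezh2-Y726D (-1.22, limma adjusted p = 0.00749). It was at 16.7, 26.4 and 20.8 in GFP, 7.3, 1.8 and 3.0 with Ezh2, and 35.3 and 29.8 with Ezh2-Y726D. A weak region of Rxra, the partner receptor, was lower in Ezh2 than in GFP (-1.09, limma adjusted p = 0.0216). It was at 17.7, 10.7 and 7.0 in GFP, 1.3, 1.3 and 0.3 with Ezh2, and also low, at 1.3 and 1.9, with Ezh2-Y726D. A region within Meis1 (1.19, adjusted p = 0.00442 by limma) was higher in Ezh2 than in Ezh2-Y726D. So was a region 8585 bp from the retinol carrier gene Rbp4 (0.95, adjusted p = 0.0105 by limma). Rbp3, the retinoid carrier between photoreceptors and pigment epithelium, had calls in both directions in Ezh2-Y726D against GFP, 1 region within the gene that was higher (1.12, limma adjusted p = 0.0131) and 1 that lay 8319 bp from it and was lower (-0.83, adjusted p = 0.0397). Without 1 library, limma lost the calls of Rarg (adjusted p = 0.0556 without Ezh2-Y726D replicate 1), Rxra (0.0587 to 0.0654 without GFP replicate 1 or 2 or Ezh2 replicate 3), Rbp4 (0.0680 and 0.0754) and Rbp3 (0.0890 and 0.0522, each without Ezh2-Y726D replicate 1 or 2), and kept that of Meis1. With ranks of −log10 p, limma also lost those of Rarg (adjusted p = 0.155) and of the higher Rbp3 region (0.162), and with percentiles that of Rxra (0.123).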

How the data were processed

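ATAC-seq was performed on 8 libraries of sorted RGCs. Per the labels, the submitters' processing notes name cutadapt, Bowtie2, SAMtools, Picard, MACS2 and deepTools and the build GRCm38. Roles and the peak threshold are not given in the sources used here. The authors deposited 1 peak list per library, replicates not pooled, with the fold over local background (a ratio), the −log10 p and −log10 q, the summit offset (a position in bp) and a display score that was not used.

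Peaks of all lists were merged, and a region took the highest fold of a list's peaks in it. Ranks of the fold were turned into normal scores over the 69493 regions with a peak in all lists (36.6% of 189914). They were compared with limma 3.58.1 (R 4.3.3) in 1 two-sided fit of all 8 libraries with group as the only term. A check on simulated data shifted few regions in Ezh2-Y726D. Against GFP, a shift of 1 unit was recovered in 2% of them and a shift of 2 units in 99.5%. A region without a call can therefore still differ by about 1 unit. Python 3.11.15, pandas 2.3.3, numpy 2.4.6, scipy 1.17.1 and matplotlib 3.10.9 did the rest. Ranks remove list-wide scale but not a difference in cell makeup. Gene spans came from RefSeq (GRCm38.p6) and promoters from its promoter table.

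The members, lists and tests were chosen with earlier results of these data known. Named in full were the Dhrs9 region with the largest difference, each other gene's start or end region, called and all-or-none regions, at most 8 genes of the wider list by size of difference, and the 5 closest profiles. Other regions without a call that are also given, and the lower Rbp3 region, were picked after their values were seen. Replicate numbers did not pair the libraries (correlations of deviations -0.015 to 0.048).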

Additional observations from a re-analysis of the deposited data

How the results depend on the processing

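Neither the Dhrs9 differences nor any called difference changed direction under an alternative, and uncalled differences were not followed. The Dhrs9 differences ranged from 0.18 to 0.48, from -3.61 to -3.05 and from 3.38 to 4.08 over 13 alternatives, with no value for −log10 q of at least 5, a cover of 0.5 or lists of equal length, where the weak Ezh2-Y726D peaks dropped out. Counts of called regions are given for the 8 genes without Dhrs9, whose start site was chosen by 2 of the contrasts. The share over all regions was not taken for each alternative. Ezh2 against GFP (0) gave 1 with ranks of −log10 p and 2 with regions in at least 2 lists of every group. It gave 0 to 3 with a GFP or Ezh2 replicate left out. Ezh2-Y726D against GFP (2) gave 1 with −log10 q of at least 5 and 1 with 2 groups in the fit. It gave 1 to 2 with a GFP or Ezh2 replicate left out. Ezh2 against Ezh2-Y726D (4) gave 1 with percentiles, 1 with −log10 q of at least 5 and 2 with the cover of 0.5. It gave 3 with lists of equal length and 2 to 6 with a GFP or Ezh2 replicate left out. Its 2 higher and 2 lower regions turned to 1 and 5 without Ezh2 replicate 1. The replicate block by title numbers gave 0, 2 and 2. By the numbers in the peak names, which differ for Ezh2-Y726D, it gave 0, 1 and 3. For the 36 other genes, the block by either numbers gave 1 call in Ezh2 against GFP (3 without it), and the pairing moved no other count by over 1.5 times. Ezh2 against GFP in these genes also gave 1 with −log10 q of at least 5, 0 with the cover of 0.5, 1 with 2 groups in the fit and 0 to 3 with a replicate left out. Ezh2-Y726D against GFP (10) gave 19 with ranks of −log10 p, 3 with the cover of 0.5 and 3 to 12 with a replicate left out, lowest without Ezh2-Y726D replicate 1. Ezh2 against Ezh2-Y726D (16) gave 10 with the cover of 0.5 and 6 to 17 with a replicate left out, lowest without either Ezh2-Y726D replicate. All-or-none regions of the 9 genes were 5 (from 2), 4 (from 2) and within 1.5 times of 8 with −log10 q of at least 5. For Ezh2-Y726D against GFP they were 6 with the cover of 0.5 and 4 with equal lists. With a replicate left out, which by the all-or-none rule can only keep or raise the count, they were 3 to 5, 4 to 7 and 10 to 13. The mean number of regions with a peak per list (63.5) was 52.5 with −log10 q of at least 5, 53.9 with the cover of 0.5, 58.0 with equal lists, 55.0 with a window of 1 kb and 62.9 to 64.4 with a replicate left out. Apart from the filters, which leave fewer peaks, and the all-or-none counts with a replicate left out, the cause was not tested. Depth is unknown, and with 2 Ezh2-Y726D libraries each decides several calls.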

Other observations

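The rank of a region depended on the measure used. The Dhrs3 start-site region was at percentiles of 18.5 to 38.2 by fold and 68.7 to 86.2 by −log10 p, and the region at the low-coordinate end of Rdh10 was at 44.7 to 53.6 by fold and 90.4 to 92.1 by −log10 p. The Rarb start site was high by both, at 71.2 to 84.6 and 89.6 to 93.5. The Dhrs9 start site in Ezh2-Y726D was low by both, at 5.0 and 10.6 by fold and 1.0 and 3.1 by −log10 p. In the other libraries its percentile by −log10 p was below that by fold, at 85.5, 79.7 and 88.1 in GFP and 90.2, 94.7 and 92.8 with Ezh2.

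Some Rarb regions without a peak in every list differed between groups and were not tested. A region at -247250 bp from the listed start site (chr14:16822212-16823241) was at 54.6, 82.9 and 79.7 in GFP, 32.9 and 7.6 in Ezh2 replicates 2 and 3, with no peak in replicate 1, and 88.7 and 82.3 in Ezh2-Y726D. A region nearer to it (chr14:16762592-16763280) had the same order, at 45.6, 64.2 and 59.4 in GFP, 26.8 and 31.8 in Ezh2 replicates 2 and 3, and 74.3 and 83.7 in Ezh2-Y726D. These were chosen after their values were seen.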
